A study of Mus musculus with 3 samples.

Results

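Tight junctions seal the gap between neighbouring cells, and in the retina those between endothelial cells form the inner blood-retina barrier. Their strands are built from claudins and occludin, the points where several cells meet are closed by tricellulin and the angulins, and junctional adhesion molecules sit beside the strands. Plaque proteins such as zonula occludens 1 and cingulin tie this assembly to the actin cytoskeleton. The 9 genes described here are Cldn5 (claudin 5, the main claudin of the endothelium of brain and retina), Ocln (occludin), Tjp1 (zonula occludens 1), Cgn (cingulin), F11r and Jam2 (junctional adhesion molecules A and B), Esam (endothelial cell-selective adhesion molecule), Marveld2 (tricellulin) and Lsr (lipolysis-stimulated lipoprotein receptor, an angulin). They were taken as a list of symbols, and all 9 were found among the 32285 genes of the deposited tables.

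Retinas were taken from C57BL/6JRj mice, young animals being 3, adult animals 12 and old animals 23 months of age, with no treatment or engineered allele named. For every age, tissue from a pair of animals went into 1 pool, which was digested and enriched on magnetic beads for CD31, the product of the endothelial gene Pecam1, before droplet single-cell RNA sequencing. Each age was 1 library, so age cannot be told apart from preparation, there is no replicate check, no p-value is given, and every 95% interval below covers counting error only. Cells were kept with 500 to 6000 genes and 1 to 20% mitochondrial transcripts, which left 1705 young, 1957 adult and 1701 old cells with a median of 5964 to 6353 unique molecular identifiers (UMIs, 1 for each captured transcript). Clusters were named from marker genes, and the comparison covers the 7 classes for which no library had under 30 cells: endothelial-like (442, 431 and 407 cells in the young, adult and old library), pericyte-like (170, 130 and 103), smooth muscle-like (38, 38 and 37), Müller glia-like (180, 215 and 210), rod-like (166, 321 and 234), cone-like (70, 103 and 72) and bipolar-like (200, 207 and 168). Both endothelial clusters carried all 12 endothelial markers. Droplets with endothelial and pericyte markers together, numbering 314, 249 and 225, were kept out of the endothelial class, and 2 barcodes were shared between kept old and adult cells. Levels are CPM, the UMIs of a gene scaled to all UMIs of a class in a library, and the classes are called endothelial cells, pericytes and so on from here. Transcript ends were counted, levels were not divided by gene length, and no order between genes is read from them.

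On GRCm38, the annotation places Cldn5 (ENSMUSG00000041378) on the plus strand of chromosome 16 from 18776847 to 18778262 and Jam2 (ENSMUSG00000053062) on the same chromosome from 84774123 to 84825928. Ocln (ENSMUSG00000021638, 100496507 to 100552718) and Marveld2 (ENSMUSG00000021636, 100595957 to 100616971) both lie on the minus strand of chromosome 13. Tjp1 (ENSMUSG00000030516, 65296165 to 65527781) and Lsr (ENSMUSG00000001247, 30957770 to 30973464) lie on chromosome 7. Cgn (ENSMUSG00000068876) is on chromosome 3 from 94760069 to 94786492, F11r (ENSMUSG00000038235) on chromosome 1 from 171437535 to 171464603, and Esam (ENSMUSG00000001946) on chromosome 9 from 37528078 to 37538319. Each is protein coding, and other annotated genes overlap Tjp1, Jam2, Marveld2 and Lsr.

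The bases just before the annotated start are shown for Cldn5 and Cgn, since their levels across classes differed most plainly: the first was found in endothelial cells and the second in Müller glia. Both come from RefSeq on GRCm38.p6 and run 5′ to 3′ along the gene, chr16:18776597-18776846 on the plus strand for Cldn5 and chr3:94786493-94786732 on the minus strand for Cgn. Capitals mark the GC box, searched as GGGCGG. The other motifs searched were an ETS core (AGGAAG), a SOX core (ACAAAG) and a TATA box (TATAAA), each on both strands.

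Cldn5: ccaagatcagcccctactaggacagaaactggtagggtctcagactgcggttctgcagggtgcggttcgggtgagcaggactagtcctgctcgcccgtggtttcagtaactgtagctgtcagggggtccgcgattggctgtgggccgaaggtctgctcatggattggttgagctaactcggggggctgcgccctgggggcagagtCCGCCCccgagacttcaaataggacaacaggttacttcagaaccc

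Cgn: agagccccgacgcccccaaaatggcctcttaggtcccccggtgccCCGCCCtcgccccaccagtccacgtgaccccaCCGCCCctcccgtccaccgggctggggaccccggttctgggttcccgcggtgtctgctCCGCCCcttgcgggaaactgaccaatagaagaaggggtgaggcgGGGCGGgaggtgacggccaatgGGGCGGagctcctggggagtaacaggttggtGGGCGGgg

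The Cldn5 stretch held 1 GC box and the Cgn stretch 6, and neither held any of the other letters. Of 32851 promoter windows, each the 250 bases before a start, 32.7% held a GC box, 29.5% the ETS letters, 16.5% the SOX letters and 12.4% the TATA letters. These are matches of letters and not measured binding sites.

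In endothelial cells, the strand proteins were measured at nearly equal levels at the 3 ages. Cldn5 stood at 4919 CPM (95% Poisson interval 4843 to 4995) in the young library, at 5114 (5038 to 5191) in the adult library and at 5117 (5043 to 5191) in the old library, from 15963, 17252 and 18569 UMIs. The old and adult levels overlapped, and the young level lay just under both, giving old over young 1.04 (1.02 to 1.06). Ocln stood at 194 CPM (179 to 210), 196 (181 to 211) and 192 (178 to 207), so all 3 intervals overlapped, and old over young came to 0.99 (0.89 to 1.11).

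The plaque and tricellular members differed little more. Tjp1, the scaffold that binds claudins, occludin and junctional adhesion molecules, stood at 629 CPM (602 to 657), 641 (614 to 668) and 537 (513 to 561), the youngest library given first. The old library was the lowest and its interval did not overlap the others, at 0.85 (0.80 to 0.91) of young and 0.84 (0.79 to 0.89) of adult. Lsr, which recruits tricellulin to tricellular contacts, stood at 252 CPM (235 to 270), 285 (267 to 304) and 282 (265 to 300), with old over young at 1.12 (1.02 to 1.23) and adult over young at 1.133 (1.031 to 1.245). Marveld2 itself was scarce, with 18, 22 and 22 UMIs, or 5.55, 6.52 and 6.06 CPM. Cgn was near the limit of detection, with 1, 0 and 2 UMIs among 3245481, 3373565 and 3629009, and no fold is given for it.

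Among the adhesion molecules, Esam was the highest in the old library. Its levels were 448 CPM (425 to 471), 434 (412 to 457) and 505 (482 to 528), so that old over young was 1.13 (1.05 to 1.21). F11r stood at 134 CPM (122 to 148), 123 (111 to 135) and 149 (136 to 162), and Jam2 at 281 (263 to 300), 275 (258 to 293) and 258 (241 to 275). The young interval of each overlapped its old one, with ratios of 1.11 (0.97 to 1.26) for F11r and 0.92 (0.84 to 1.01) for Jam2. The adult and old intervals of F11r did not overlap, with old over adult at 1.21 (1.06 to 1.38).

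Of the 9 members, 7 had at least 50 UMIs over each pair of libraries, which leaves out Marveld2 and Cgn. None of the 7 differed by 1.5-fold or more in endothelial cells, against 8.13% of 8977 genes between old and young, 4.17% of 8873 between adult and young and 6.2% of 9037 between old and adult. Those shares include counting error and take in every gene from 50 UMIs, while the 7 members held 851 to 35821 over a pair. Their median old over young was 1.04, beside 1.02 over all genes measured, and the 10th to 90th percentile of all genes ran from 0.79 to 1.32. No ratio of the 7 passed 1.5 under any of the 12 alternative settings, where they ran from 0.84 to 1.28. Endothelial cells of the old library carried fewer pericyte marker UMIs (1316 CPM summed over 9 markers, against 2049 in young and 2082 in adult) and more of the 5 erythroid markers (1398 against 557 and 199). With endothelial cells left out where markers of pericytes, smooth muscle, rods, Müller glia and erythroid cells made over 1% of their UMIs (18, 19 and 15 cells), no member passed 1.5-fold.

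**Figure D1:**
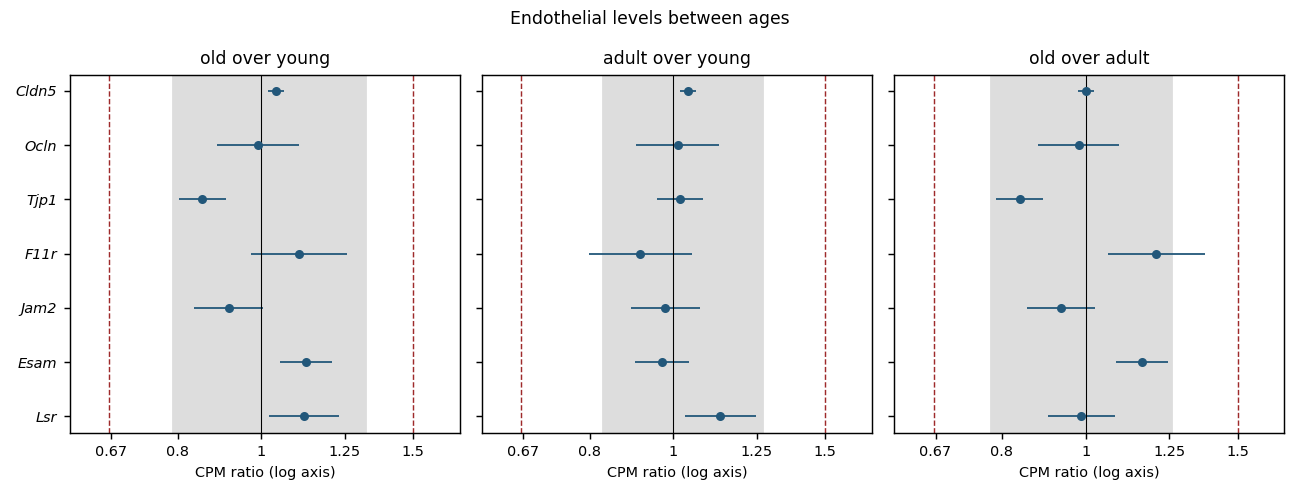
Ratio of endothelial CPM (x axis, log scale) between each pair of libraries for the 7 members with at least 50 UMIs. Points are ratios, bars their exact 95% counting intervals, the grey band the 10th to 90th percentile of all genes measured, and dashed lines 1.5-fold either way, which no member reached.

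Single cells were compared at equal depth. With each cell thinned to 2000 UMIs, the middle endothelial cell held 10 Cldn5 UMIs in every library, and 90% of cells held 4 or more. Among 428 young, 403 adult and 402 old cells a Cldn5 UMI was seen in 99.8, 99.0 and 99.8%, against 2.86, 1.85 and 4.93% of rods, a class that should lack the gene. For Tjp1 the share was 67.3% (62.6 to 71.7), 65.0% (60.1 to 69.7) and 57.7% (52.7 to 62.6), but no order of the ages is read from it. Thinned to 1000 UMIs it was 40.2, 37.9 and 40.9%, and with all UMIs 91.2, 86.1 and 89.4%. Ocln was seen in 30.8, 32.3 and 29.9%, F11r in 22.7, 21.1 and 24.9%, Jam2 in 40.9, 44.7 and 40.8%, Esam in 57.5, 58.3 and 59.5%, and Lsr in 36.4, 40.7 and 40.5%. Cells too shallow to be thinned numbered 14, 28 and 5 in the endothelium and 61, 105 and 92 among rods. Without thinning, an Ocln UMI was seen in 72.7% of old endothelial cells, at a median depth of 7486 UMIs.

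The endothelial class had 2 clusters, and the members had been kept out of the features that formed them. The smaller, arterial-like cluster (46, 57 and 80 cells) was the higher of the pair for all 9 arterial markers, and its leading genes were Gkn3, Sema3g and Vegfc. Cldn5 was lower there in each library, at 0.88 (0.84 to 0.93), 0.88 (0.84 to 0.92) and 0.82 (0.79 to 0.85) of the other endothelial cells in the young, adult and old library. Tjp1 was at 0.89 (0.78 to 1.02), 0.80 (0.70 to 0.91) and 0.76 (0.67 to 0.85), and Esam at 0.81 (0.69 to 0.95), 0.91 (0.78 to 1.06) and 0.75 (0.66 to 0.85). F11r went the other way, at 1.16 (0.88 to 1.49), 1.44 (1.12 to 1.83) and 1.28 (1.05 to 1.55). Over the 3 libraries Ocln, Jam2 and Lsr were at 0.98 (0.87 to 1.10), 1.06 (0.96 to 1.17) and 1.03 (0.93 to 1.14), whose intervals all hold 1. At a clustering resolution of 1.0, a cluster was highest for 6 of 7 venous and 3 of 8 capillary markers. It had 5161, 5311 and 5596 CPM of Cldn5 and 709, 750 and 645 of Tjp1. A cluster led by Cxcl12 and Rgcc, highest for 2 of 8 capillary markers, had 5382, 5894 and 5515 CPM of Cldn5, and less Tjp1, at 519, 421 and 409.

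A further cluster of 64, 73 and 85 droplets carried 11 of the 12 endothelial markers but few UMIs (a median of 2132.5), was led by Gm26917, Neat1 and Apold1, and was not counted as endothelial. Its Cldn5 level was 2076 CPM (1868 to 2301), 2886 (2627 to 3163) and 2240 (2050 to 2443), below the endothelial level of the same library each time. Its Tjp1 level, 675 (559 to 808), 619 (502 to 754) and 659 (558 to 773), overlapped the endothelial level in all 3 libraries. Counting these droplets as endothelial left the members' ratios on the same side of 1.5-fold.

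Outside the endothelium the members parted. RNA set free during digestion can carry endothelial transcripts into other droplets, which was not measured here. Levels are therefore given as a percent of the gene's own endothelial level, beside the median of the same percent over the 12 endothelial markers. Cldn5 stood at 0.14, 0.20 and 0.32% in young, adult and old Müller glia, beside 0.26, 0.30 and 0.31%, from 11, 20 and 26 UMIs. It was below the median in pericytes (2.73, 3.67 and 3.27% beside 5.80, 6.11 and 7.80%). It was near it in rods, at 0.30, 0.20 and 0.45% beside 0.28, 0.31 and 0.39%. In smooth muscle, Cldn5 numbered 2, 60 and 9 UMIs, and 58 of the 60 adult UMIs were in 1 cell. Lsr was below the marker median in pericytes, at 1.14, 2.58 and 2.86%, but above it in Müller glia, where 12, 14 and 12 UMIs made 2.88, 2.50 and 2.71%. Ocln was above the marker median in pericytes, at 9.59, 9.39 and 9.45%, from 32 UMIs. It had at most 9 UMIs in any other class outside the endothelium.

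The order of the classes was the clearest for Esam, whose level fell from endothelial cells to pericytes, smooth muscle and bipolar cells in every library, with no overlap of neighbouring intervals. For Tjp1, endothelial cells stood above pericytes and pericytes above Müller glia and smooth muscle in each library, and the intervals of the last pair overlapped. For F11r, endothelial cells stood above all other classes, and Müller glia and pericytes could not be put in order in the young and old library, where their intervals overlapped. For Jam2, endothelial cells stood above all other classes.

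**Figure D2:**
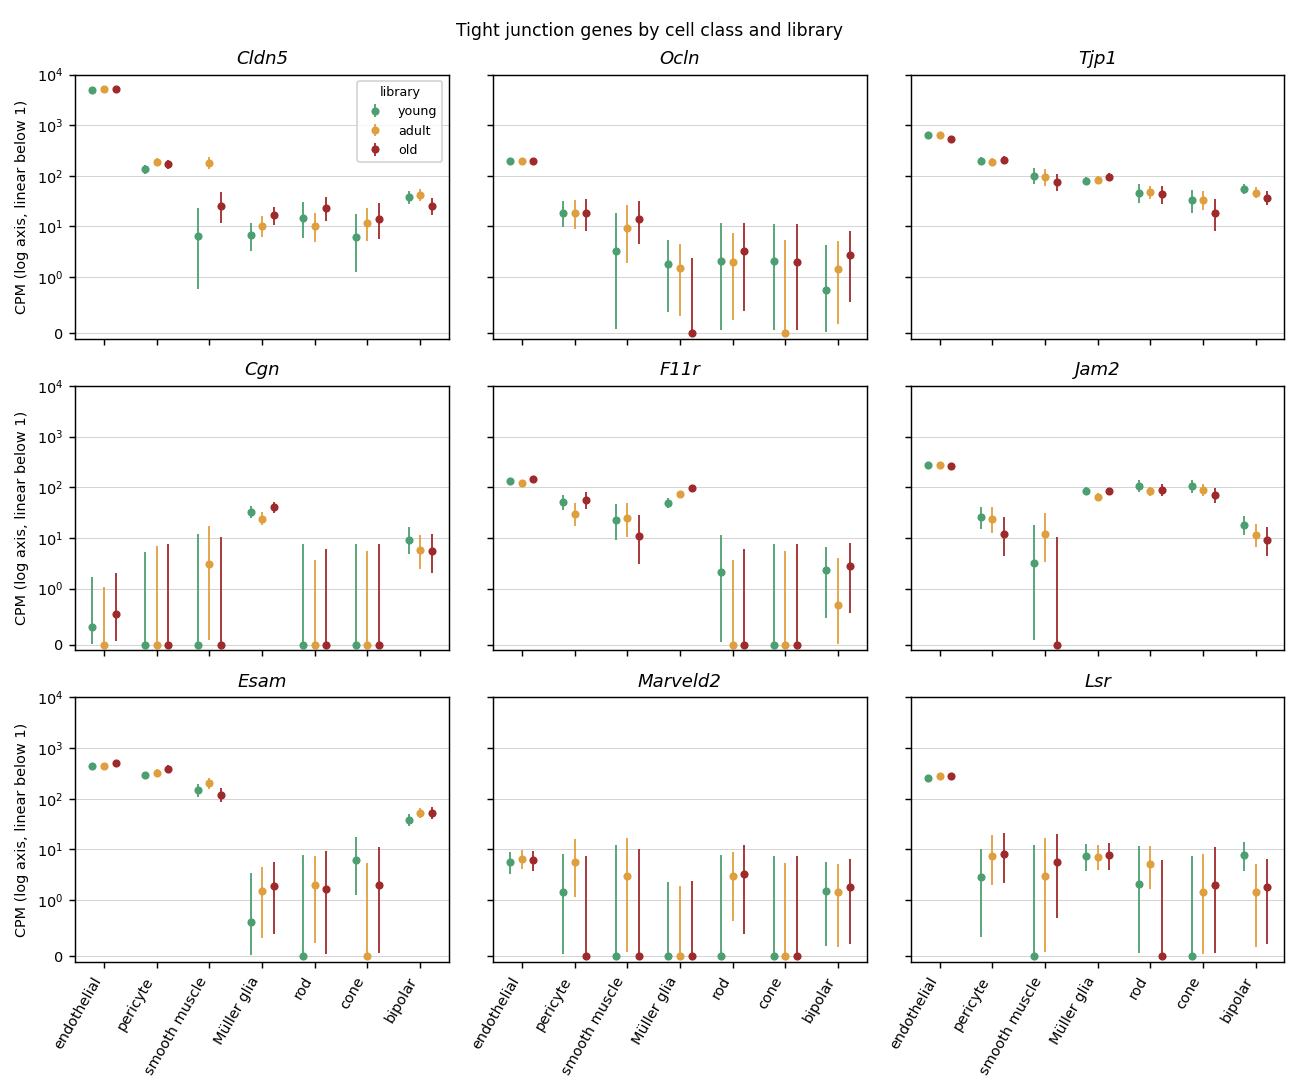
CPM of each member (y axis, log scale that is linear below 1) in the 7 classes, 1 point per library with its exact 95% Poisson interval. Cldn5, Ocln and Lsr stand high in endothelial cells alone. Tjp1 is seen in every class, Jam2 also in rods, cones and Müller glia, and Cgn mainly in Müller glia.

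**Figure D3:**
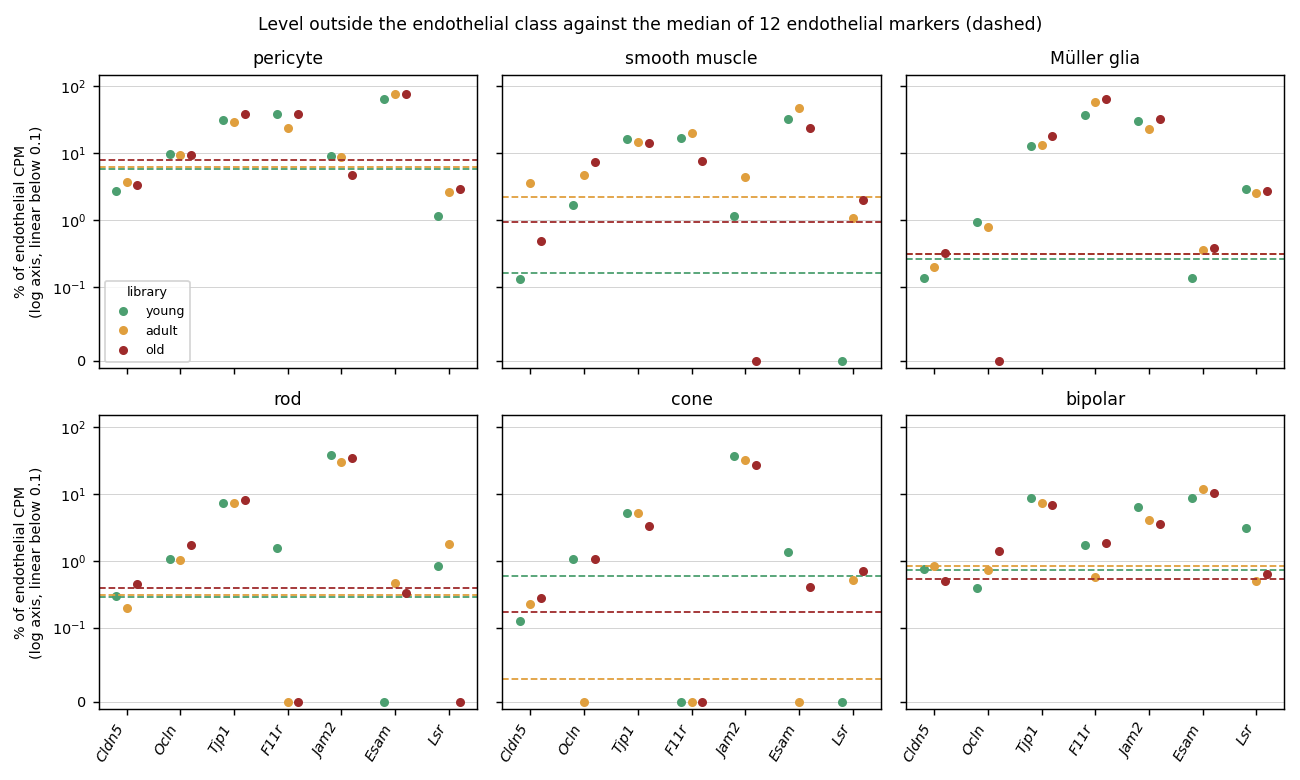
Level of 7 members in each class outside the endothelium as a percent of their endothelial CPM in the same library (y axis, log scale that is linear below 0.1). Dashed lines mark the median of the 12 endothelial markers in that class and library. Jam2 in rods, cones and Müller glia, Esam in mural cells and F11r in Müller glia lie well above them.

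Mural cells, which wrap the endothelial tube, carried Esam. Pericytes held 293 CPM (254 to 336), 327 (281 to 379) and 394 (340 to 453) in the young, adult and old library, or 65.5, 75.4 and 78.0% of the endothelial level, far above their marker median. Smooth muscle held 146 (107 to 196), 204 (158 to 259) and 120 (86.7 to 161). In pericytes old over young was 1.34 (1.10 to 1.64), while old over adult was 1.20 (0.98 to 1.48), which holds 1. The share of pericytes with an Esam UMI gave no such order, at 47.4, 44.4 and 52.3% thinned to 2000 UMIs and 26.0, 27.4 and 23.5% thinned to 1000. In smooth muscle the adult interval overlapped both others, and old over adult was 0.59 (0.39 to 0.87). Pericyte markers in the smooth muscle class had a median of 45.3, 36.5 and 23.7% of their pericyte level, from young to old, and their part in the Esam levels was not tested. Between old and adult smooth muscle, Esam and Cldn5 passed 1.5-fold of 3 members measured, against 11.3% of 2063 genes, the Cldn5 ratio resting on the 1 adult cell described above. Between adult and young Cldn5 alone passed, against 11.3% of 1878 genes, and between old and young none of 2 did, against 14% of 1975. Tjp1 stood at 196 CPM (164 to 232), 189 (155 to 230) and 206 (168 to 250) in pericytes and at 101 (68.5 to 143), 94.3 (64.0 to 134) and 75.2 (49.5 to 109) in smooth muscle, with all intervals of a class overlapping. F11r in pericytes was at 38.3, 23.9 and 38.1% of its endothelial level, from 36, 16 and 28 UMIs. Of the 4 members with at least 50 UMIs over the old and young pericytes (Cldn5, Tjp1, F11r and Esam), none passed 1.5-fold, against 12.2% of 3867 genes. Between adult and young F11r did, at 0.57 (0.30 to 1.06) from 52 UMIs, where 8.9% of 3988 genes did. Between old and adult none of 3 passed, against 10.1% of 3497 genes. The endothelial marker Emcn was at 48.1 to 56.4% of its endothelial level in pericytes, so a marker can stand above the median there.

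In Müller glia, the radial glia whose end feet meet the vessels and whose outer processes join the photoreceptors at the outer limiting membrane, 4 members had at least 50 UMIs over each pair of libraries. F11r stood at 49.6 CPM (39.5 to 61.6), 72.4 (61.0 to 85.3) and 95.5 (80.8 to 112) in young, adult and old cells, from 82, 142 and 150 UMIs. The young library was the lowest and the old the highest, and the young and old intervals did not overlap. Old over young was 1.92 (1.46 to 2.55), adult over young 1.46 (1.10 to 1.94), and old over adult 1.32 (1.04 to 1.67). F11r was the 1 of the 4 members measured there to pass 1.5-fold between old and young, where 8.66% of 7388 genes did. Between adult and young none of the 4 passed, against 7.88% of 7779 genes, and between old and adult Cgn alone did, against 7.08% of 7715. No cell held more than 6 F11r UMIs, and leaving out the cell with most of them in each library gave 1.92 again. Old Müller glia were the shallowest, with a median of 6782 UMIs per cell against 9171 in young and 9486 in adult. In cells thinned to 2000 UMIs, F11r was seen in 6.47% (3.27 to 11.3), 15.1% (10.4 to 20.8) and 13.7% (8.88 to 19.8), and these intervals overlapped one another. No F11r UMI was seen in 105, 216 and 142 thinned rods, which allows up to 2.86, 1.39 and 2.11% of rods with a UMI at this depth and does not bound expression.

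Jam2 in Müller glia stood at 85.9 CPM (72.4 to 101), 63.2 (52.6 to 75.4) and 82.7 (69.1 to 98.2), the adult library being the lowest and its interval reaching into those of the others. Tjp1 stood at 79.9 (66.8 to 94.7), 83.6 (71.3 to 97.4) and 96.1 (81.4 to 113), with overlapping intervals. With free RNA subtracted, the Müller Tjp1 level summed over libraries was 3.91% of the endothelial level in place of 14.4%, and old over young for Tjp1 was 3.86 in place of 1.20. That setting took 19.0 to 21.6% of Müller UMIs as free RNA, where the endothelial marker median was 0.26 to 0.31%. Its free RNA profile was the sum of all deposited barcodes, so neither Tjp1 value is read as a level or age difference. Cgn stood at 32.7 CPM (24.5 to 42.6), 24.0 (17.6 to 31.9) and 40.1 (30.8 to 51.3) from 54, 47 and 63 UMIs, with old over adult at 1.67 (1.13 to 2.50). This cingulin signal was seen in 37, 43 and 48 Müller cells, while no Cgn UMI was found in any pericyte, rod or cone of the 3 libraries. Bipolar cells held 12, 8 and 6 Cgn UMIs, or 9.21, 5.70 and 5.45 CPM. Müller glia formed 2 clusters. In the larger F11r stood at 50.9, 73.5 and 102 CPM, and in the smaller, with a median of 3588 UMIs, at 37.6, 60.5 and 44.6 from 6, 10 and 8 UMIs, while Cgn over the 3 libraries was higher in the smaller (79.3 CPM, 56.7 to 108, against 26.5, 22.0 to 31.6). In the smaller cluster Cgn stood at 62.6, 54.4 and 117 CPM, and in the larger at 29.5, 21.2 and 30.2. Without the smaller cluster, Cgn in old over young was 1.02 in place of 1.23, and F11r stayed past 1.5-fold. Cgn in old over adult was then 1.43 (0.90 to 2.27) and no longer passed. The endothelial marker Kdr was at 133 to 172% of its endothelial level in Müller glia, so percents were set beside the median over markers. The free RNA setting used sums over markers instead, taking the lower of a rod and an endothelial estimate, the latter with Kdr.

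**Figure D4:**
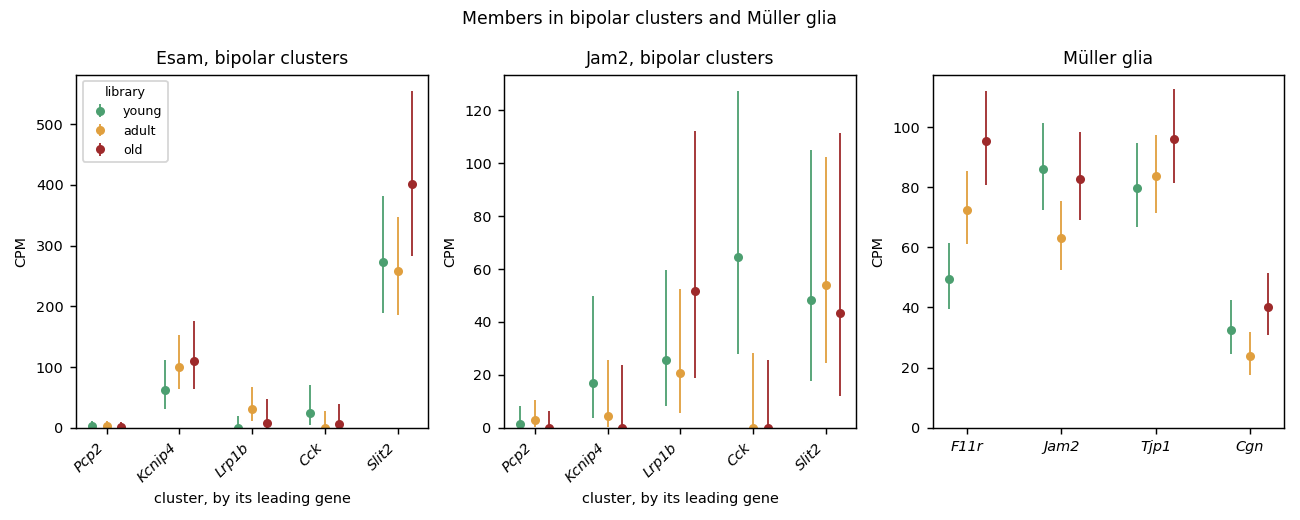
CPM of Esam and Jam2 in the 5 bipolar clusters, each named by its leading gene, and of 4 members in Müller glia, 1 point per library with its exact 95% Poisson interval. Esam is concentrated in the cluster led by Slit2 and then that led by Kcnip4, and F11r in Müller glia is lowest in the young library.

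Photoreceptors carried Jam2 and Tjp1. In rods Jam2 stood at 106 CPM (79.2 to 140), 82.6 (65.7 to 102) and 89.1 (66.9 to 116), again from young to old, and in cones at 104 (77.2 to 136), 89.2 (68.2 to 115) and 70.4 (49.0 to 97.9). These were 37.8, 30.01 and 34.6% of the endothelial level in rods and 36.9, 32.4 and 27.3% in cones, where the endothelial marker median was at most 0.601%. The rod, cone and Müller levels could not be put in order, since their intervals overlapped in each library. In thinned cells a Jam2 UMI was seen in 17.1, 13.4 and 15.5% of rods, and in 24.6, 19.8 and 13.2% of cones. Old over young was 0.84 (0.561 to 1.254) in rods and 0.68 (0.43 to 1.06) in cones, and both intervals hold 1. No member measured in photoreceptors passed 1.5-fold, against 10.7% (old and young), 11.2% (adult and young) and 10.4% (old and adult) of all genes in rods and 10%, 8.43% and 10.1% in cones. Tjp1 was present at 42.9 to 47.3 CPM in rods and 18.1 to 33.6 CPM in cones. F11r was seen with 1 UMI in all rods and none in cones, and Esam with 3 and 4.

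In bipolar cells, the interneurons that receive photoreceptor input, Esam stood at 38.4 CPM (28.5 to 50.6), 52.0 (40.8 to 65.4) and 51.8 (39.2 to 67.1), and most of it came from 1 small cluster. Under stricter limits on cells, the bipolar Esam level over the 3 libraries was 19.1% of the endothelial level in place of 10.2%. The cluster led by Slit2, Neto1 and Irx6 (21, 27 and 16 cells) held 34, 43 and 37 of the UMIs, at 273, 258 and 402 CPM, and 79.7% (67.8 to 88.7) of its 64 cells had at least 1. A second cluster, led by Kcnip4, Grik1 and Otor, stood at 62.3, 101 and 110 CPM. The cluster with the rod bipolar genes Pcp2 and Prkca had 5 UMIs in 240 cells, or 2.54 CPM (0.82 to 5.92). In the Slit2 cluster the endothelial markers had a median of 0.18% and the pericyte markers of 0.10% of their levels in their own classes, while its Esam level overlapped that of young pericytes. Jam2 in bipolar cells was at 17.6, 11.4 and 9.08 CPM, and 8 of the 23 young UMIs came from 2 cells of the cluster led by Cck. Tjp1 in bipolar cells stood at 55.2 CPM (43.2 to 69.6), 46.3 (35.7 to 59.0) and 36.3 (26.0 to 49.5), and old over young was 0.66 (0.44 to 0.98). Of the 3 members measured there, Tjp1 alone passed 1.5-fold, against 8.37% of 6354 genes, and without the cell with most of its UMIs in each library the ratio was 0.67 and no longer passed. Between adult and young none passed, against 6.08% of 6796 genes, and between old and adult Cldn5 did (0.60, 0.37 to 0.96), with 26 of its 59 adult UMIs in 1 cell, where 7.24% of 6522 genes did.

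Likeness across the 21 sums of 7 classes and 3 libraries is given as a description, since these points share libraries. The gene most like Cldn5 among 10414 was Ly6c1 (Pearson r of 0.994 on log2 of CPM plus 10), followed by Cavin2 and Kif26a (0.984 each). The nearest to Ocln were Pdgfb (0.990), Vwf and Erg (0.989 each), and to Lsr Gimap8, Pmaip1 and Gimap5 (0.985 each). Tjp1 was nearest to Sptbn1 (0.989), Maoa (0.975) and Selenop (0.972), and F11r to Psmb8 (0.977), Plscr4 (0.973) and Trim34a (0.965). Esam was nearest to Rusc1 (0.977), Hrct1 (0.970) and Col4a1 (0.968), and Jam2 to Slc16a1 (0.964), Scarb1 (0.939) and Slc46a3 (0.933). Between members, r was 0.97 for Cldn5 and Ocln and -0.16 for Jam2 and Esam.

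Of 52 other tight junction genes, 21 had at least 50 UMIs over the old and young endothelial cells and 16 had none in any library. The median of old over young was 0.96, and 1 gene passed 1.5-fold upward and 2 downward, where 8.13% of all genes measured passed either way. The upward gene was Ildr2, an angulin of Müller glia (194 to 214 CPM there), at 8.94, 13.0 and 19.8 CPM in young, adult and old endothelial cells, a ratio of 2.22 (1.42 to 3.55). Müller markers in the endothelial class summed to 1163, 1383 and 1640 CPM. Their part in the Ildr2 ratio was not tested. The ratio was 2.33 without endothelial cells with markers of other classes and 2.30 with free RNA subtracted. It was 1.60 thinned to 2000 UMIs and 1.49 with the endothelial-pericyte droplets counted. Magi3, a scaffold of cell contacts, stood at 68.7, 58.7 and 41.6 CPM, a ratio of 0.61 (0.49 to 0.75), and Arhgef18 at 21.6, 19.9 and 14.1, a ratio of 0.65 (0.45 to 0.95). Counting those droplets moved these to 0.74 and 0.77, and thinning to 2000 UMIs moved them to 0.69 and 1.13, so neither call held. The 5 with most endothelial UMIs were Cgnl1 (paracingulin, 298, 320 and 263 CPM), Ybx3 (166, 156 and 161), Arhgef2 (140, 149 and 134), Amotl1 (133, 141 and 110) and Amotl2 (73.3, 89.2 and 81.3).

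Of 13 adherens junction genes, 12 were measured, with a median ratio of 0.94. The 1 gene past 1.5-fold was Cdh2 (N-cadherin), at 44.4, 32.3 and 16.8 CPM in endothelial cells, a ratio of 0.38 (0.28 to 0.51), and 1 of 12 is close to the 8.13% of all genes. Counting the endothelial-pericyte droplets moved Cdh2 to 0.63, and subtracting free RNA to 0.26, both still past 1.5-fold. Cdh2 stood at 395, 430 and 323 CPM in pericytes, whose markers were also lowest in old endothelial cells, as given above. The part of pericyte transcripts in the Cdh2 ratio was not tested. Without endothelial cells with markers of other classes the ratio was 0.39. Cdh5 (VE-cadherin) stood at 530, 531 and 517 CPM, Ctnnb1 (beta-catenin) at 741, 777 and 691, Ctnna1 at 252, 270 and 257, Pecam1 at 616, 636 and 590, and Ptprb (the phosphatase VE-PTP) at 1974, 1887 and 1711.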

How the data were processed

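Per the file headers and labels, the authors deposited unnormalised UMI counts for each gene and barcode, made with Cell Ranger 6.1.2 on mm10. The library chemistry counts transcript ends. The members, marker genes and lists were chosen with earlier results of these data known. Naming thresholds were set with the data in hand. Cells within the study's limits were kept, and 8, 17 and 12 doublets called with Scrublet (scanpy 1.11.5) were removed. Libraries were integrated and clustered in Seurat 5.3.0 with 2000 features, 30 components and a resolution of 0.5, with members and list genes left out of the features. A cluster took a name from at least 3 markers, each in at least 20% of its cells and at 25% or more of the highest cluster's level, and was called mixed where several classes each had at least 3 and 50% or more of their markers, except that pericyte and smooth muscle markers together gave the name smooth muscle. A cluster was left unnamed where its median UMI count was under 33.3% of its library's and none of its markers led it. UMIs were summed per class and library. Sums have exact Poisson, ratios exact conditional binomial and shares Clopper-Pearson 95% intervals (scipy 1.17.1), and a count of 0 is read against 3 counts. A member counts as past a fold from 50 UMIs over the pair. Total UMIs per library ran from 16577026 to 19977238. The ratio step was tested on simulated data. List genes are named when past 1.5-fold, among the 5 with most endothelial UMIs in their list or among the 5 highest outside the endothelium, and likeness was computed for genes with at least 200 UMIs. Gene positions are from GENCODE M21 on GRCm38, where 32235 of 32285 identifiers were found. Promoters were matched for 7 members by symbol, and Jam2 and Esam had no entry. The Tjp1 window was left out, as it lies inside an annotated gene. Alternatives were other classes, limits, thinning, scaling and free RNA subtracted, and 2 settings for the endothelial class (low-UMI droplets added, arterial-like cluster left out) and 2 for other classes (low-UMI Müller cluster and top cell left out) were added after seeing the data.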

Additional observations from a re-analysis of the deposited data

Results flagged for a closer look

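Members were also seen in clusters too small or uneven to compare between ages, at levels above the limit that a count of 0 allows and above the median percent of the endothelial markers there. In the amacrine-like cluster of 51 cells, Tjp1 stood at 137 CPM (101 to 182) and Cgn at 42.8 CPM (24.0 to 70.6), from 48 UMIs in 26 cells and 15 UMIs in 11 cells. In the cluster with pigment epithelium markers, led by Ttr, Rgr and Ptgds, Esam stood at 79 CPM (50.6 to 118), with 24 UMIs in 18 of 62 cells, 54 of them from the old library. In the microglia-like cluster F11r stood at 60.4 CPM (39.4 to 88.4), from 26 UMIs in 12 of 51 cells, where the endothelial markers had a median of 12.0% of their endothelial level. Of these UMIs 20 came from the adult library, in which the cluster also held Cldn5 at 664 CPM (up to 63 UMIs in 1 cell) and Tjp1 at 209 CPM, with the endothelial marker median at 18.1%, and the part of these transcripts in the F11r level was not tested.

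A cluster of 38 droplets led by the lens crystallins Crygs, Cryaa and Crybb2, 37 of them from the adult library, held Jam2 at 83 CPM (64.5 to 105), Tjp1 at 46.4 CPM (32.8 to 63.7), F11r at 15.9 CPM (8.45 to 27.1) and Cgn at 14.6 CPM (7.57 to 25.6). Cldn5 was seen there with 6 UMIs, and the endothelial marker median was 0.13%.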

How the results depend on the processing

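No paired analysis was possible because each age is 1 library, and for the same reason no replicate could be left out. Of 443 values recomputed under alternatives, 405 stayed and 38 moved, and none of the endothelial ratios of 7 members passed 1.5-fold. A value stayed if it lay within its counting interval. A count of members past a fold stayed if it was equal to the main count or within 1.5 times of it. With endothelial-pericyte droplets counted, Cldn5 was 1.07 (old over young) and 1.04 (old over adult), and Lsr 1.09 (old over adult). Thinned to 2000 UMIs, Cldn5 was 1.00 and 1.00 (old and adult over young), Tjp1 0.95 and 0.93 (adult over young, old over adult), Esam 1.05 (old over young) and Marveld2, with few UMIs left, 3.19 and 3.19 (old and adult over young). As a mean over cells, Cldn5 was 1.08 and 0.95, Tjp1 0.96 and 0.92, Esam 1.05 and 1.05 (adult over young, old over adult) and Lsr 0.90 (old over adult). Without the arterial-like cluster Cldn5 was 1.07 and 1.02 (old over young, old over adult), with median-of-ratios scaling 1.01 (adult over young), and at resolution 1.0 its arterial-like level was 0.82 of the others. With free RNA subtracted, Müller Jam2 and Tjp1 were 21.3 and 3.91% of endothelial, Cgn 37.1 CPM and the Müller Tjp1 ratio of old over young 3.86. That setting estimated 19.0 to 21.6% of Müller UMIs as free RNA. Pericyte Cldn5, Ocln and Lsr were 0.145, 5.93 and 0%. Under stricter cell limits bipolar Esam was 19.1%, and pericyte Cldn5 and Lsr 3.87 and 3.88%. With all UMIs, or thinned to 1000, shares of cells were 100 and 97% (Cldn5, old endothelial), 72.7 and 17.0% (Ocln, old endothelial), 38.1 and 6.83% (F11r, old Müller), and with all UMIs 21.2% (Jam2, adult rods). The causes of these moves were not tested. Depth limits Marveld2, Cgn and every class outside the endothelium.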

Other observations

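The genes of the wider lists with the highest level outside the endothelium, relative to it, spread over the retinal classes. Jam3, the third junctional adhesion molecule, stood at 193, 194 and 161 CPM in young, adult and old cones, and at 8.60 to 9.09 CPM in endothelial cells. It was also seen in smooth muscle (137, 125 and 128 CPM) and pericytes (113, 114 and 86.8). Pard6b, a polarity protein, was highest in cones, with 52 UMIs over the 3 libraries and 1 in endothelial cells. Marveld3, a relative of occludin and tricellulin, was highest in rods, with 58 UMIs and none in endothelial cells. In Müller glia, Cxadr, the coxsackievirus and adenovirus receptor, stood at 69.0, 65.8 and 58.5 CPM.

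Of the adherens list, Cdh2 was highest in Müller glia, at 521, 552 and 508 CPM, and Nectin3 stood there at 145, 135 and 136. Nectin1 was highest in bipolar cells, at 80.5, 81.9 and 76.3 CPM. Vcl (vinculin, a link to actin) was highest in mural cells, at 522, 517 and 525 CPM in pericytes and 475, 517 and 568 in smooth muscle. Ctnna1 stood at 0.68 of its endothelial level in smooth muscle. Cldn10 had 75 UMIs in 8 young Müller cells, at most 17 in 1 cell, and none in endothelial cells.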
